A study of Mus musculus with 4 samples.

Results

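The mitochondrial ribosomal proteins of LPS-stimulated B cells were followed through the 76 genes whose symbol is Mrpl or Mrps and a number, and whose RNA-seq score was at least 0.005 in at least 1 of 4 samples. All 76 genes that carry such a symbol met this minimum, of 9727 genes that met it and 30041 that were listed. By the letter in the symbol, 47 belong to the large and 29 to the small subunit. The smallest of their highest scores was 0.011 for Mrps31, so no member lay close to the minimum on either side.

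Mitochondria carry their own ribosomes, which translate the few messages of the mitochondrial genome into core subunits of the respiratory chain and the ATP synthase. Every protein of these ribosomes is encoded in the nucleus, made in the cytosol and imported. The small subunit binds the mRNA and reads the codons, and the large subunit joins the amino acids and lets the chain out through an exit tunnel close to the inner membrane. B cells that divide and become antibody-secreting cells after LPS build up mitochondrial mass.

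RNA was measured in splenic B cells of mice of the strain labelled C57BL/6, after 72 h of culture with LPS, with 2 samples of control and 2 of cKO cells. Per the study's methods, control mice were Nfkbiz fl/Δ, which already carry the deleted allele Δ on 1 chromosome, and cKO mice were Nfkbiz fl/Δ Mb1 cre/+, with Cre driven by the promoter of Cd79a, a gene of the B cell receptor. The Cre allele was present in the cKO group only, so its presence and the loss of Nfkbiz cannot be told apart here. Age, sex and the number of mice behind a sample are not given in the sources used here, and the LPS dose of the labels, 20 mg/ml, has another unit than in the study's methods (μg/ml). B cells were purified by depletion of other cells, not by a positive sort.

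The 4 samples were alike in depth and scale. The scores of all genes summed to 604.2 to 637.6 per sample, the median score of the genes past the minimum was 0.0173 to 0.0176, and the step between low scores corresponds to an inferred 17500000 to 19900000 reads. Nfkbiz, the targeted gene, scored 0.0241 and 0.0226 in control and 0.0127 and 0.0116 in cKO cells (limma log2 fold change -0.94, adjusted p = 0.0282). This call was lost without cKO 1 (adjusted p = 0.13 by limma), without cKO 2 (0.0885), without the minimum on scores (0.203) and without the variance trend (0.0509). Of the 6 B cell markers, all were past the minimum, and they summed to 2.33 and 2.59 in control and 2.22 and 2.21 in cKO cells, with 4 below and 1 above both controls. Without Cd79a, whose promoter drives Cre, the other 5 summed to 1.66 and 1.85 in control and 1.81 and 1.8 in cKO cells. The 8 myeloid markers summed to 0.17 to 0.175 in control and 0.208 to 0.21 in cKO cells, with 5 above both controls and S100a9 at 0. T cell markers (7 found) summed to 0.0107 to 0.0138 and 0.0146 to 0.0153, with 4 above both controls, and NK cell markers (4 found) to 0.00061 to 0.00071 and 0.00168 to 0.00215, with 1 above both. The 5 erythroid markers with a score above 0 summed to 0.0134 and 0.00263 in control and 0.00254 and 0.00218 in cKO cells. Of these, 3 were above and 2 below both controls. The sum of control 1 came mostly from Hbb-b1 and Hbb-b2, at 0.00657 and 0.00638, against 0.00113 and 0.00116 in control 2. Alas2, Hba-a1 and Hba-a2 were higher in both cKO samples than in either control. The part of these markers in the values that follow was not tested.

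Among the members the score varied 8.19-fold, from a control mean of 0.0109 to 0.089, with a median of 0.0287. Low scores behaved as reads divided by exon length and depth would, so levels of different genes are set side by side here per length, with the caution that this is inferred from the values and that the exons of all transcripts were counted together. Large subunit genes had control means of 0.0118 to 0.0775 (median 0.0318, n = 47 genes) and small subunit genes of 0.0109 to 0.089 (median 0.0244, n = 29 genes). Mrps21, the counterpart of a small bacterial protein of the same number, had the highest level, with 0.0873 and 0.0907 in control and 0.0787 and 0.0844 in cKO cells. Mrps7, a protein of the small subunit head, followed with 0.0832 and 0.0765 in control and 0.0653 and 0.0744 in cKO cells. The control means of Mrps7 and of the leading large subunit gene differed by less than the spread of the control samples.

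Of the large subunit, Mrpl23, a protein at the rim of the exit tunnel, led with 0.0750 and 0.0800 in control and 0.0643 and 0.0656 in cKO cells. Mrpl45, which lines the tunnel and faces the membrane, came next, then Mrpl12, the protein of the flexible stalk that meets the translation factors, with 0.0708 and 0.0666 in control and 0.0526 and 0.0623 in cKO cells. Mrpl18 and Mrpl51 completed the 5 highest, with control means between those of Mrpl12 and of Mrps14. At the lower end, Mrps31 scored 0.0107 and 0.0110 in control and 0.00939 and 0.0104 in cKO cells. Mrps22 scored 0.0130 and 0.0107 in control and 0.0103 and 0.0105 in cKO cells. The lower control sample of Mrps22 was closer to the cKO samples than to the other control, as can be read from the plot of scores by sample.

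**Figure D1:**
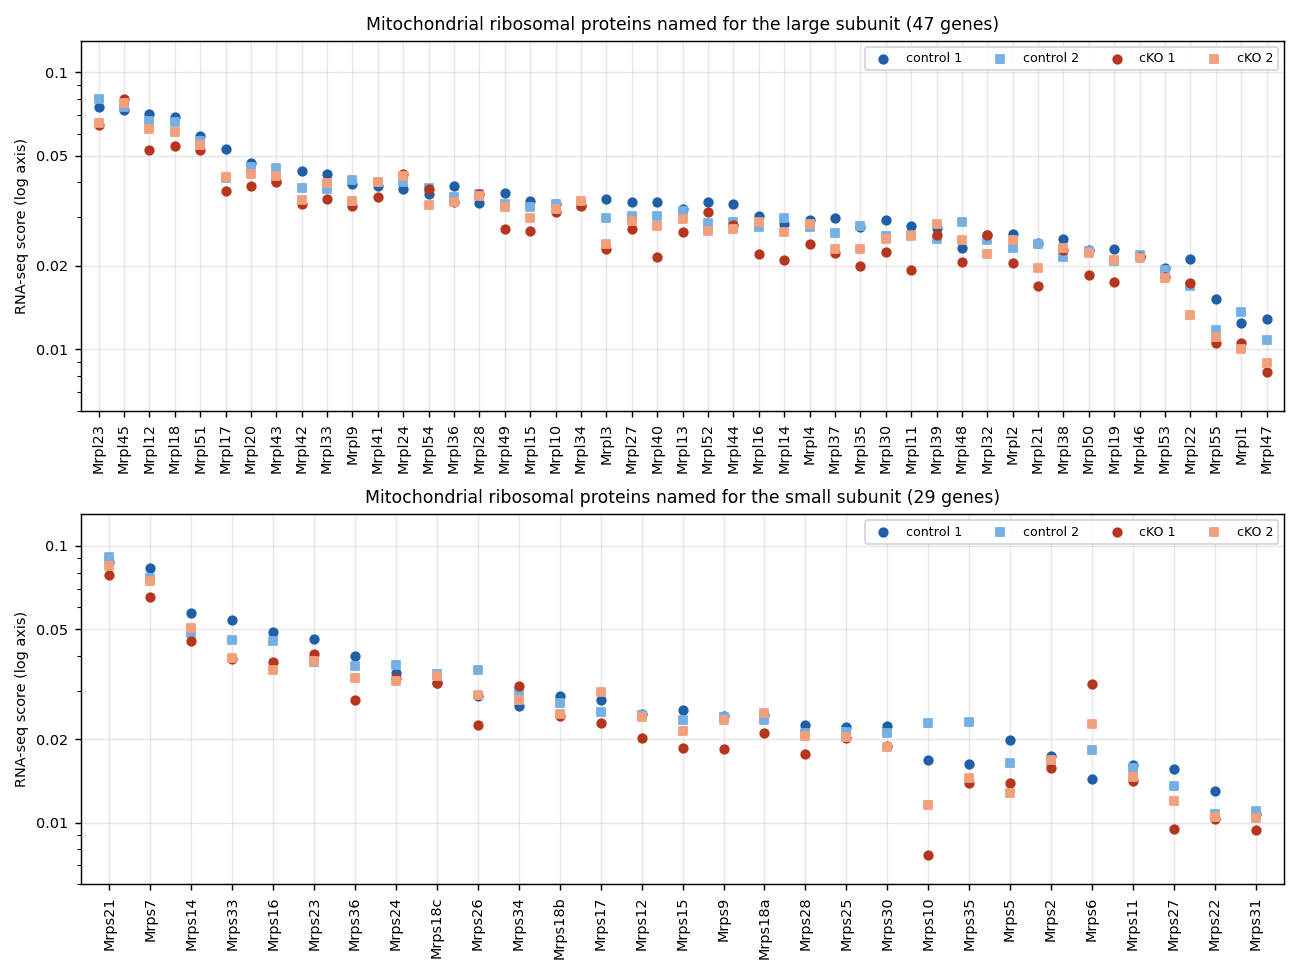
RNA-seq score (vertical log axis, no stated unit) of each of the 47 large and 29 small subunit members in control 1, control 2, cKO 1 and cKO 2, ordered by control mean from high to low. Points of cKO 1 lie lowest in 54 of 76 members, and Mrps10 and Mrps6 stand apart on the right of the lower panel, one with cKO points below and the other with cKO points above the controls.

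In cKO B cells most mitochondrial ribosomal protein genes scored a little lower than in control B cells, and no single gene passed the threshold. The log2 fold change (cKO to control, limma on log2(score + 0.0001)) was negative in 69 and positive in 7 of the 76 members, 90.8% against 51.8% of all 9727 genes. Its median was -0.19, with quartiles of -0.27 and -0.09, while the median of all genes was -0.01. By ratio of mean scores, 62 members lay between 0.8 and 1.25, 13 below (6 large, 7 small) and 1 above. Because the RNA came from whole cultures, fewer cells of a kind and less RNA per cell cannot be told apart.

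limma with Benjamini-Hochberg adjustment over all genes called 0 members in either direction at an adjusted p of 0.05. Over all genes it called 1.25% lower and 0.812% higher, 2.07% together. At the nominal level, an unadjusted limma p below 0.05, 20 members were lower and 1 was higher, where the shares over all genes were 11.5% and 10.8%. The lowest adjusted p among members was 0.0948 (Mrps10, limma), and the standard errors ran from 0.078 to 0.234 with a median of 0.105, so that shifts of the size of the median were within about 2 standard errors for a typical member. Labels do not say whether the samples were separate mice or cultures, and p-values measure the spread between these samples only. Leaving out 1 control sample at a time changed this count: without control 1 Mrps10 and Mrps35 were called lower, and without control 2 Mrpl3, Mrps5 and Mrps33 were called lower and Mrps6 higher. Without cKO 1, limma called 0 members (6 nominally lower, 1 higher), and without cKO 2 it called 0 (18 nominally lower, 1 higher).

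The groups did not overlap, with cKO below control, in 48 members (63.2%), against 30.1% of all genes, and with cKO above in 3 (3.95%), against 28.1%. In 25 members the groups overlapped. With 2 against 2 samples the smallest two-sided p of an exact permutation test is 0.33, so no single gene could pass such a test. The 3 members above both controls were Mrps6, Mrpl24 and Mrpl45.

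**Figure D2:**
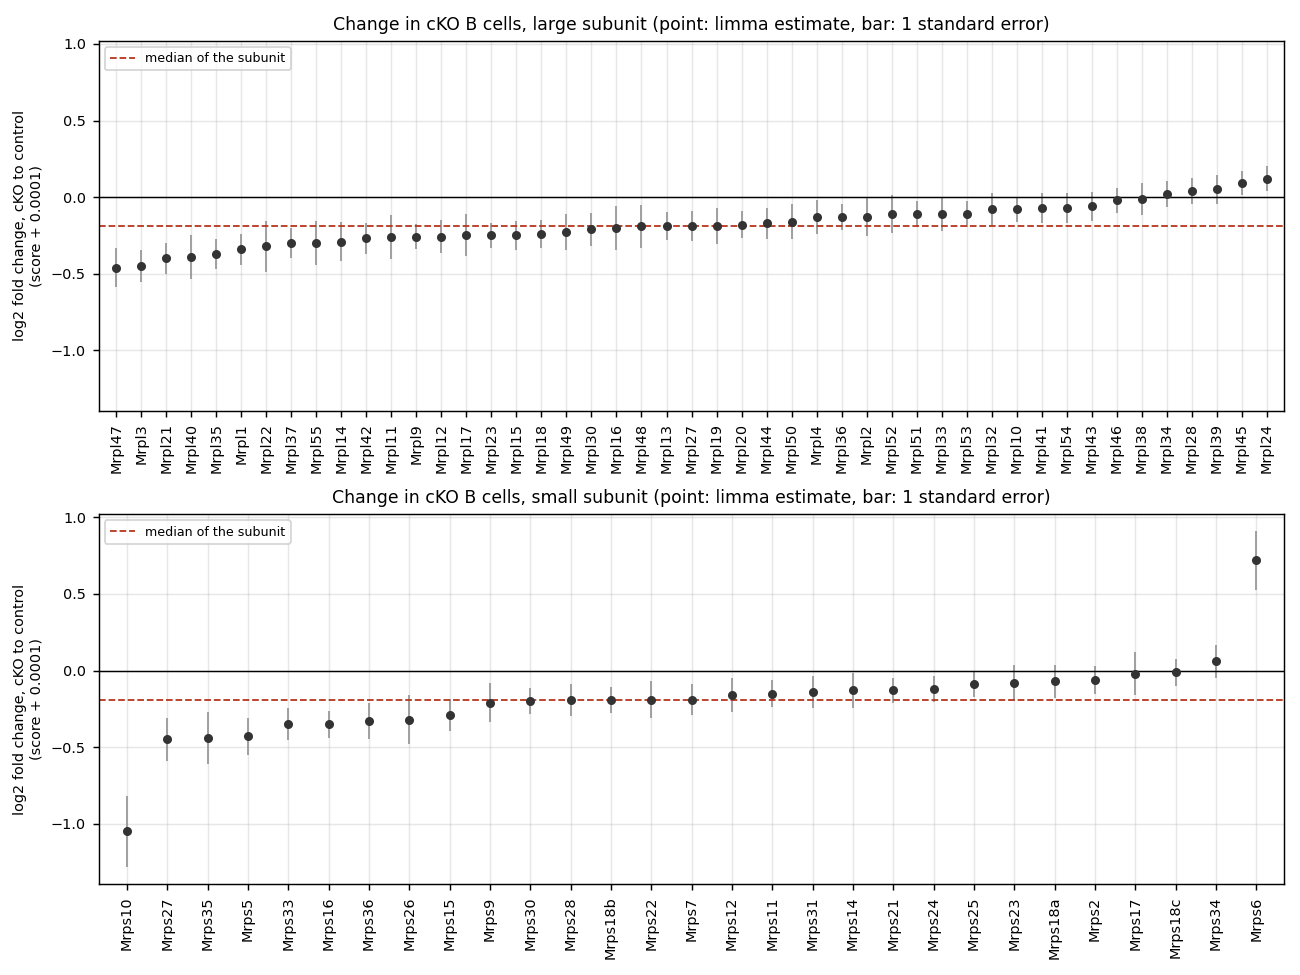
log2 fold change of each member (cKO to control, vertical axis) with 1 standard error from limma on 2 and 2 samples, large subunit above and small subunit below, ordered by the change. The dashed lines mark the median of each subunit, both at -0.19, and only Mrps10 at -1.05 and Mrps6 at 0.72 lie outside -0.46 to 0.12.

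The large and the small subunit differed from control by nearly the same amount. The 47 large subunit scores summed to 1.64 and 1.57 in control and 1.39 and 1.48 in cKO cells, a mean of 1.61 ± 0.05 against 1.44 ± 0.066 (SD, n = 2), 10.6% below control. The 29 small subunit scores summed to 0.901 and 0.878 in control and 0.762 and 0.813 in cKO cells, a mean of 0.889 ± 0.016 against 0.787 ± 0.036 (SD, n = 2), 11.5% below control. For either subunit both cKO sums were below both control sums, and cKO 1 was the lower of the pair. The members of both subunits together made up 0.407% and 0.384% of all scores in control and 0.356% and 0.37% in cKO cells.

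The ratio of the large to the small subunit sum was 1.823 and 1.791 in control and 1.823 and 1.825 in cKO cells. The cKO ratios lay close to control 1, and the controls differed from each other by more than the cKO samples did from it. Taken as geometric means over the members, the ratio was 1.204 and 1.157 in control and 1.195 and 1.186 in cKO cells, with both cKO values between the controls. The median log2 fold change was -0.19 for either subunit, and the medians differed by -0.004 (large minus small). With 1 sample left out at a time, this difference ran from -0.057 (without cKO 2) to 0.028 (without control 1). Of the large subunit members, 42 were lower and 5 higher by sign, 12 of them nominally lower and 0 higher (limma), and 28 (59.6%) had both cKO scores below both controls. Of the small subunit members, 27 were lower and 2 higher by sign, 8 nominally lower and 1 higher, and 20 (69%) had both cKO scores below both controls.

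The letter in the symbol does not match the known structure of the ribosome for every protein. Mrps18a and Mrps30 sit in the large subunit, and Mrps36 has been assigned to a dehydrogenase complex rather than to the ribosome. With these moved, 49 large and 26 small subunit members had medians of -0.19 and -0.17, and the ratio of sums was 2.075 and 2.029 in control and 2.058 and 2.075 in cKO cells. The order of the samples was mixed here too, with each cKO ratio inside or at the edge of the control range. Mrps36 itself scored 0.0401 and 0.0366 in control and 0.0277 and 0.0334 in cKO cells (log2 fold change -0.33).

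**Figure D3:**
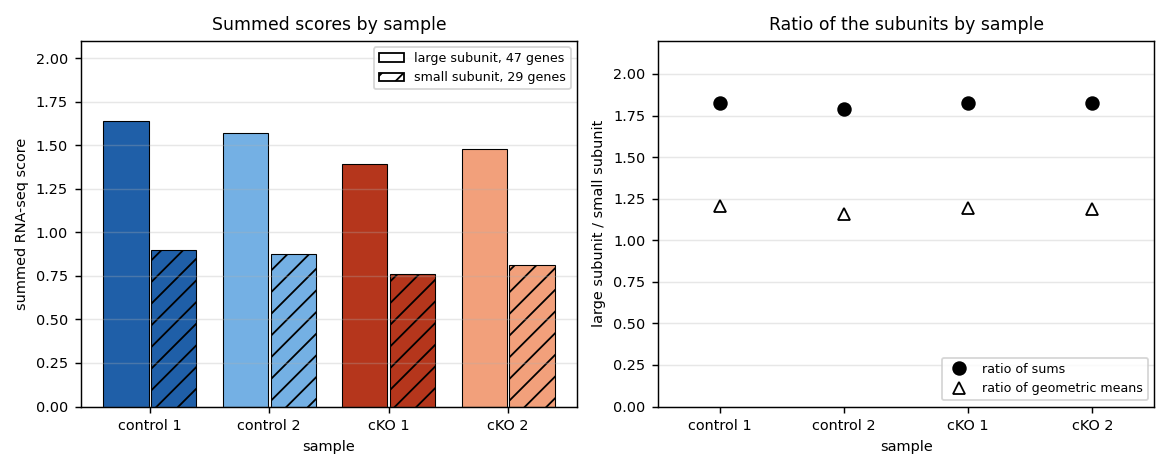
Left, summed RNA-seq scores (no stated unit) of the 47 large and 29 small subunit members in each sample. Right, the ratio of large to small subunit in each sample, as a ratio of sums (circles, 1.791 to 1.825) and of geometric means (triangles, 1.157 to 1.204). The bars are lower in cKO than in control samples and the ratios are level.

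Mrps10 was the member furthest below control. Its protein, in the head of the small subunit, has a bacterial counterpart that also takes part in transcription. Mrps10 (Entrez 64657) lies on the plus strand of chromosome 17 at chr17:47505836-47518366 (NCBIM37, called mm9) and shares no exon bases with another annotated gene. It scored 0.0168 and 0.0229 in control and 0.00762 and 0.0116 in cKO cells. Both cKO samples were below both controls, but the samples of each group were themselves far apart. The log2 fold change was -1.05 with a standard error of 0.234, the largest error among the members, and the limma adjusted p was 0.0948. Without control 1 the change was -1.27 (limma adjusted p = 0.0397), and without cKO 1 it was -0.75 (0.334).

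Mrps6 was the member furthest above control. It is the counterpart of a bacterial protein on the platform of the small subunit, and lies on the plus strand of chromosome 16 at chr16:92058515-92112472 (NCBIM37, Entrez 121022). Its scores were 0.0143 and 0.0183 in control and 0.0316 and 0.0227 in cKO cells, with both cKO samples above both controls and cKO 1 the highest. The log2 fold change was 0.72 with a standard error of 0.191, and the limma adjusted p was 0.124. Without control 2 the change was 0.90 (limma adjusted p = 0.042), and without cKO 1 it was 0.48 (0.495).

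The score of Mrps6 could not be assigned to that gene alone. Of its exon bases, 696 (43.8%) are also exon of Slc5a3 on the same strand, which encodes a transporter of myo-inositol and other osmolytes. Slc5a3 scored 0.00160 and 0.00210 in control and 0.00446 and 0.00296 in cKO cells, under the minimum of 0.005, with the samples in the same order as for Mrps6. The ratio of its mean scores was 2.01, and without the minimum its log2 fold change was 0.95 with a standard error of 0.278 (limma adjusted p = 0.284). Reads in the shared bases cannot be told apart from the scores.

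**Figure D4:**
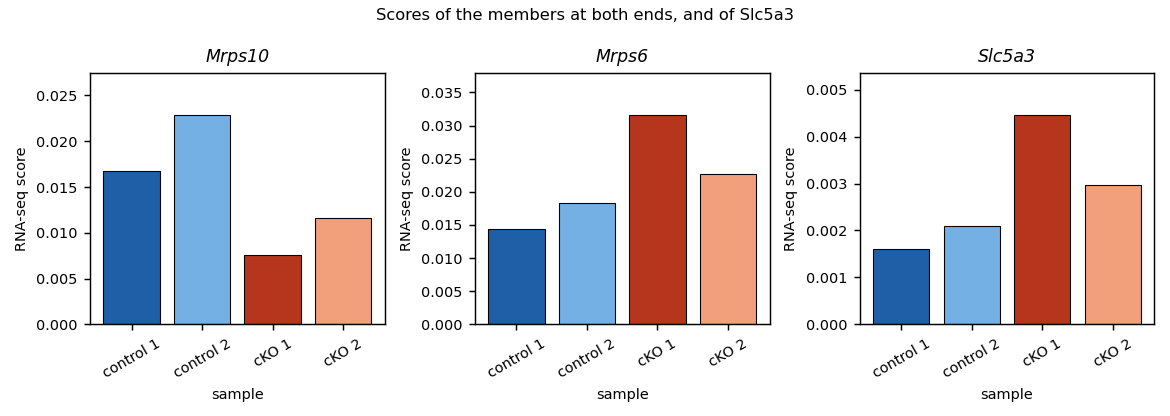
RNA-seq scores (no stated unit, bars from 0, 1 bar per sample) of Mrps10, Mrps6 and Slc5a3. For Mrps10 both cKO bars are below both control bars, and for Mrps6 and Slc5a3, which share exon bases, both are above, with cKO 1 the highest.

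Other small subunit genes were lower by less. Mrps27, a protein of the pentatricopeptide repeat family that bacteria lack, scored 0.0156 and 0.0136 in control and 0.00952 and 0.0119 in cKO cells (log2 fold change -0.45, SE 0.143), and 22.6% of its exon bases are shared with the lincRNA 6430562O15Rik on the other strand. Mrps35, another protein without a bacterial counterpart, scored 0.0162 and 0.0231 in control and 0.0139 and 0.0145 in cKO cells (-0.44, SE 0.171). Its control samples were the furthest apart among the members, by 0.51 on the log2 scale, and without control 1 its change was -0.70 (limma adjusted p = 0.0311). Mrps5, the counterpart of a protein at the mRNA entrance, scored 0.0199 and 0.0165 in control and 0.0139 and 0.0128 in cKO cells (-0.43, SE 0.120), and without control 2 its change was -0.57 (limma adjusted p = 0.0442). In each of these genes both cKO scores were below both controls, with limma adjusted p-values from 0.13 to 0.213.

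Mrps33 and Mrps16 show a like difference at higher levels. Mrps33 scored 0.0540 and 0.0458 in control and 0.0389 and 0.0394 in cKO cells (log2 fold change -0.35, SE 0.105), and without control 2 its change was -0.46 (limma adjusted p = 0.0422). Mrps16, which has a bacterial counterpart and a single annotated transcript, scored 0.0487 and 0.0454 in control and 0.0379 and 0.0356 in cKO cells (-0.35, SE 0.088). For both genes the cKO samples differed from each other by less than the distance to the nearer control. At the other end, Mrps34 scored 0.0264 and 0.0299 in control and 0.0310 and 0.0277 in cKO cells (0.06), with the groups overlapping. Of its exon bases 63.4% are shared with Mapk8ip3 on the other strand and 37% with Nme3 on the same strand, and the libraries do not mark the strand.

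In the large subunit the 3 members furthest below control have bacterial counterparts. Mrpl47, the counterpart of a protein near the exit of the tunnel, scored 0.0129 and 0.0108 in control and 0.00826 and 0.00892 in cKO cells (log2 fold change -0.46, SE 0.125), and 13.1% of its exon bases are shared with Actl6a on the other strand. Mrpl3, whose bacterial counterpart reaches towards the peptidyl transferase centre, scored 0.0348 and 0.0297 in control and 0.0230 and 0.0240 in cKO cells (-0.45, SE 0.106, limma adjusted p = 0.103). The cKO samples of Mrpl3 lay close together and below both controls, and without control 2 the change was -0.57 (limma adjusted p = 0.0305). Mrpl21 scored 0.0242 and 0.0239 in control and 0.0168 and 0.0196 in cKO cells (-0.40, SE 0.103).

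Mrpl40, a protein without a bacterial counterpart whose human gene lies in the region lost in DiGeorge syndrome, scored 0.0339 and 0.0303 in control and 0.0215 and 0.0279 in cKO cells (log2 fold change -0.39, SE 0.144). Mrpl1, of the lowest scores in this subunit, had 0.0125 and 0.0137 in control and 0.0106 and 0.0101 in cKO cells (-0.34, SE 0.101). Mrpl55 had 0.0152 and 0.0117 in control and 0.0105 and 0.0111 in cKO cells (-0.30, SE 0.143). In these genes, too, both cKO samples were below both controls, for Mrpl55 by little beside the distance between its controls.

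The 5 most abundant members of the large subunit lay between -0.26 and 0.09 on the log2 scale. Mrpl23 (log2 fold change -0.25), Mrpl12 (-0.26) and Mrpl18 (-0.24) were 15.1% to 16.4% below control by mean score, while Mrpl51 was 7.25% below (-0.11). Mrpl45 scored 0.0731 and 0.0750 in control and 0.0801 and 0.0773 in cKO cells (0.09, SE 0.078), and Mrpl24 scored 0.0380 and 0.0403 in control and 0.0431 and 0.0421 in cKO cells (0.12, SE 0.083). In both genes both cKO scores were above both controls, and the log2 fold change was 1 to 2 times its standard error. Mrpl24 shares 26.3% of its exon bases with Rrnad1 on the other strand. Mrpl39 (0.05), Mrpl28 (0.04) and Mrpl34 (0.02) had overlapping groups. Of the 5 most abundant small subunit members, Mrps21 and Mrps14 were at -0.13, Mrps7 at -0.19, and Mrps33 and Mrps16, described above, at -0.35, and only for Mrps14 did the groups overlap.

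3 members descend from the same bacterial protein, and mammals place them at different sites of the ribosome. Mrps18a, the copy in the large subunit, scored 0.0245 and 0.0234 in control and 0.0210 and 0.0248 in cKO cells (log2 fold change -0.07, SE 0.108). Mrps18b scored 0.0287 and 0.0271 in control and 0.0243 and 0.0247 in cKO cells (-0.19, SE 0.084). Mrps18c scored 0.0319 and 0.0343 in control and 0.0320 and 0.0337 in cKO cells (-0.01, SE 0.088). The groups overlapped for Mrps18a and Mrps18c, and for Mrps18b both cKO scores were below both controls. A lincRNA, Gm16279, shares 30.5% of the exon bases of Mrps18b on the other strand.

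The split between proteins inherited from bacteria and those added in mitochondria did not separate the changes. Of 47 members with a bacterial counterpart, 43 were lower by sign, with a median of -0.19, and of 28 without, 25 were lower, with a median of -0.15. In the large subunit the medians were -0.21 (29 genes) and -0.11 (18 genes), and in the small subunit -0.15 (18 genes) and -0.19 (10 genes), so the order of the groups differed between the subunits. The level did not separate them either, with medians of -0.16 in the 26 members of highest control score, -0.19 in the middle 25 and -0.19 in the lowest 25.

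Members were scattered over the genome, with 10 on chromosome 11, 8 on chromosome 17 and 7 on chromosome 6. The 8 genes on chromosome 17, which carries the MHC, had a median change of -0.16 (log2), and 6 of them were lower by sign. Apart from Mrps10 and the genes above, they were Mrpl14 (-0.29) and Mrpl2 (-0.13), from 13104215 (Mrpl18) to 47518366 (Mrps10) on that chromosome. Between the control samples themselves, Mrps10 scored 1.36 times as high in control 2 as in control 1, and the other genes there 0.89 to 1.13 times.

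Some of these genes start next to another gene that is read in the opposite direction, and the like share of all genes was not counted. Only starts upstream of the member's own start were counted, so pairs that overlap at their starts, as Mrpl46 and Mrps11 do, were left out. For 18 members such an upstream start lay within 1000 bases, at a median distance of 114 bases, and 16 of the neighbours encode proteins. Of these neighbours, 12 were past the minimum, 8 of them lower and 4 higher by sign, with a median log2 fold change of -0.11 and 0 called by limma. Members with such a neighbour had a median of -0.16 and those without of -0.19. Mrpl40 faces Hira, which encodes a histone chaperone and scored 0.0217 and 0.0208 in control and 0.0187 and 0.0203 in cKO cells (-0.12). The pair Mrpl51 and Ncapd2 were at -0.11 and -0.30, and Mrpl49 and Fau at -0.23 and 0.02. In all, 26 members share exon bases with another gene, 16 of them 10% or more, and the median was -0.15 in these 16 and -0.19 in the other 60.

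Promoters were examined because most members differed in the same direction. RefSeq promoters (GRCm38.p6, 250 bases before to 50 after each start) were matched by Entrez identifier for 67 of the 76 members, with 73 starts. 4 motifs were searched on both strands, CGCATGCG (core of the site of NRF1, nuclear respiratory factor 1), CCGGAAG (ETS family, which includes GABP), CACGTG (E-box, bound by Myc and other factors) and AAGATGGC (YY1), and none of them contains another. Of the members with a promoter, 38 held at least 1 of the motifs, 10 held 2 and 29 held none. The windows below show the 5 members in which 2 motifs lie closest together and the 2 members at the ends of the range of change, Mrps10 and Mrps6, in which none was found. Capitals mark the motifs on either strand, each sequence runs 5′ to 3′ along its gene, and positions are those of GRCm38.p6, another build than that of the gene positions above. Mrpl22 (NRF1 and ETS) is chr11:58171603-58171647 on the plus strand, Mrpl36 (E-box and YY1) chr13:73330958-73330994 plus, Mrps18a (ETS and YY1) chr17:46110970-46111024 plus, Mrps18c (E-box and ETS) chr5:100798588-100798617 plus, and Mrps27 (ETS and YY1) chr13:99344730-99344809 plus. Mrps10 is chr17:47369137-47369196 plus and Mrps6 chr16:92058276-92058335 plus, each the 60 bases before the start.
Mrpl22: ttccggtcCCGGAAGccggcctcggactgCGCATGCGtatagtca
Mrpl36: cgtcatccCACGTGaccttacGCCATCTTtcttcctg
Mrps18a: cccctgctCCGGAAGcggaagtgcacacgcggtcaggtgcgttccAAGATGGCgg
Mrps18c: ccccgggtCACGTGaCTTCCGGcccgggaa
Mrps27: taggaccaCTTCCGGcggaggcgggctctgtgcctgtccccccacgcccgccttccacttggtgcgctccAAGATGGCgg
Mrps10: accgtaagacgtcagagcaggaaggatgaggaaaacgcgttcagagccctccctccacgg
Mrps6: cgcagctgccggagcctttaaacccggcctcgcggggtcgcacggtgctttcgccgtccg

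The ETS motif was found in 24 member promoters, 35.8%. This stands beside 9.93% of 27025 genes with a promoter and 24.1% of the 7278 among them past the score minimum. The YY1 motif was found in 12, 17.9%, against 3.19% and 6.32%. The NRF1 core was found in 7, 10.4%, against 2.07% and 5.08%, and 6 of these 7 belong to the large subunit. The E-box was found in 5, 7.46%, against 8.09% and 12.4%. These shares are a description and were not tested. Among the windows shown, Mrps27 with ETS and YY1 motifs was at -0.45, and Mrps18a with the same pair was at -0.07. Mrpl22 was at -0.32, Mrpl36 at -0.13 and Mrps18c at -0.01. Members with and without the ETS motif had the same median log2 fold change, -0.19, as had those with and without the NRF1 core. With the YY1 motif it was -0.17, and with the E-box -0.13.

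The lower values of the cKO group were more marked in cKO 1 than in cKO 2. Against the control mean of each gene, the median log2 difference of the members was -0.25 in cKO 1 and -0.12 in cKO 2, and 0.04 and -0.04 in the controls. Over all genes it was -0.02 in cKO 1. In cKO 1, 63 members were below both controls, and in cKO 2, 52 were. The like share of all genes was not counted for a single cKO sample, so these 2 counts have no frame. cKO 1 was the lowest of the 4 samples in 54 members (71.1%), while it was the lowest in 34.7% of all genes. Control 1, the sample with the higher Hbb-b1 and Hbb-b2, was the highest in 48, and without it the medians of the large and small subunit were -0.12 and -0.15. The median distance between replicates was 0.11 in control and 0.15 in cKO cells on the log2 scale for members, and 0.13 and 0.11 for all genes. With 1 cKO sample left out at a time, the median of the large subunit was -0.12 without cKO 1 and -0.27 without cKO 2, and that of the small subunit -0.12 and -0.21.

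Genes that work with the mitochondrial ribosome were set beside its proteins, in lists drawn up by function. The 7 ribosomal proteins that bear other symbols had a median of -0.18, 6 lower and 1 higher by sign. Among them Mrp63 scored 0.0437 and 0.0359 in control and 0.0308 and 0.0318 in cKO cells (-0.34), and was called lower only when control 2 was left out (-0.48, limma adjusted p = 0.0422). Dap3, a GTP-binding protein of the small subunit first known from cell death, scored 0.0266 and 0.0328 in control and 0.0307 and 0.0318 in cKO cells (0.08). Of 13 translation factors, 8 were lower and 5 higher by sign, with a median of -0.08. Guf1, a factor that resembles the bacterial elongation factor LepA, scored 0.0102 and 0.00901 in control and 0.00651 and 0.00732 in cKO cells (-0.47), and Tufm, the factor that brings the aminoacyl-tRNA, scored 0.0739 and 0.0699 in control and 0.0557 and 0.0576 in cKO cells (-0.34, limma adjusted p = 0.105). Pdf, the deformylase, was at 0.12. limma called 0 genes of either list, with 2 and 3 genes nominally lower and 0 higher. These counts, and those of the lists below, stand beside 11.5% nominally lower and 10.8% higher over all genes.

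The assembly factors were mixed in direction. Of 22 genes, 16 were lower and 6 higher by sign, with a median of -0.06, and limma called 0 (2 nominally lower, 0 higher). Mtg1, a GTPase that acts in the assembly of the large subunit, scored 0.0107 and 0.00780 in control and 0.00413 and 0.00461 in cKO cells, with both cKO samples well below both controls. Its log2 fold change was -1.05 with a standard error of 0.189 (limma adjusted p = 0.062), and without control 2 it was -1.27 (0.0125). Mettl17, an assembly factor of the small subunit, was at 0.31 with both cKO scores above both controls.

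The remaining lists had medians between -0.09 and -0.01. The 15 mitochondrial aminoacyl-tRNA synthetases had a median of -0.09, 11 lower and 4 higher by sign, from Rars2 at -0.37 to Yars2 at 0.21, and 0 at the nominal level in limma. The 9 genes of mitochondrial transcription and RNA stability had a median of -0.08, 7 lower and 2 higher, from Lrpprc at -0.31, which stabilises mitochondrial mRNAs, to the RNA polymerase Polrmt at 0.18, with 1 gene nominally lower. The 7 nuclear regulators had a median of -0.01, 4 lower and 3 higher, 1 of them nominally lower. Nrf1, the factor behind the motif above, scored 0.0219 and 0.0288 in control and 0.0172 and 0.0207 in cKO cells (-0.41, limma adjusted p = 0.216), Esrra was at 0.20 and Myc at 0.01. limma called 0 genes in these 3 lists.

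**Figure D5:**
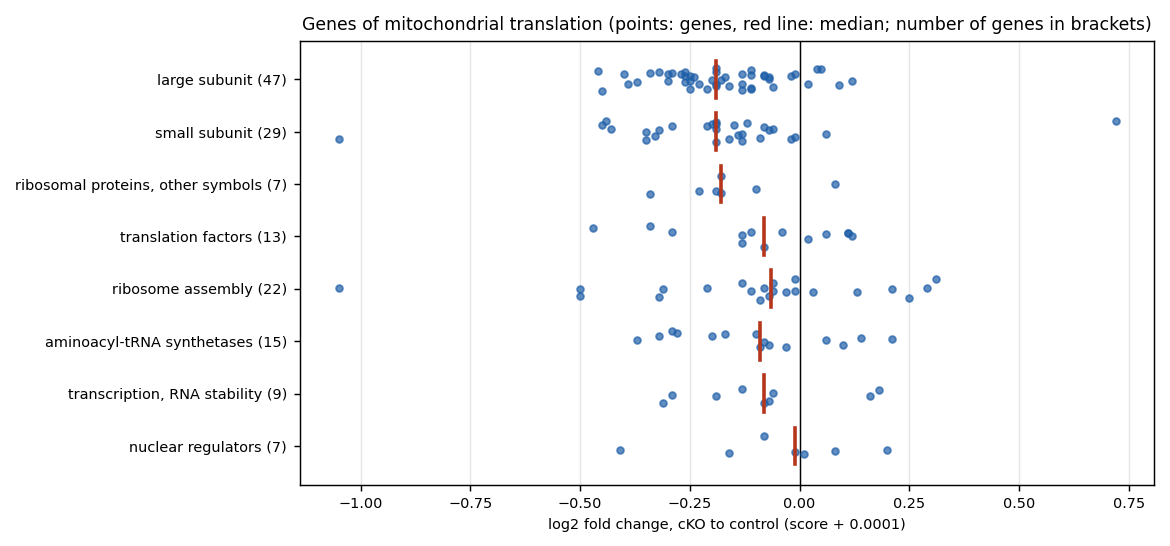
log2 fold change (cKO to control, horizontal axis) of each gene past the score minimum in 8 lists of mitochondrial translation, with the number of genes in brackets and a red line at the median. The medians of both subunits and of the ribosomal proteins with other symbols lie at -0.19 to -0.18, those of the other lists at -0.09 to -0.01.

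2 larger families gave a frame for the size of the difference. Among 81 genes with symbols of nuclear-encoded oxidative phosphorylation subunits, partners of the products of the mitochondrial ribosome, 72 were lower and 9 higher by sign, with a median of -0.19, and 56 (69.1%) had both cKO scores below both controls. limma called 0 of them, with 22 nominally lower and 0 higher. Among 89 genes with symbols of cytosolic ribosomal proteins, 47 were lower and 42 higher, with a median of -0.00, and 19 (21.3%) had both cKO scores below both controls. limma called 0 of them, with 3 nominally lower and 2 higher. The symbol patterns take in a few other proteins, and without these 75 and 81 genes had medians of -0.19 and -0.01.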

How the data were processed

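RNA-seq of 2 control and 2 cKO samples was analysed. Per the study's methods and the labels, poly(A) RNA was made into libraries with a kit that does not mark the strand, and the submitters' processing notes name CASAVA 1.8, TopHat2 2.0, Bowtie, SAMtools and bedtools, with the build mm9. The deposited score of each gene has 5 decimals and no stated unit, and the step from reads to score is not given in the sources used here. It was treated as a normalized value, not a count.

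The 9727 genes that reached 0.005 in any sample were kept. On log2(score + 0.0001), differences were fitted by limma 3.58.1 (R 4.3.3) with its lmFit and trended eBayes functions, without a replicate block, with Benjamini-Hochberg adjustment over all kept genes and a threshold of 0.05. On this scale the change of low genes is understated. Members and lists were chosen with earlier results of these data known, so a list is described by counts and its median, without a test. Named are the 8 lowest and 5 highest changes, the 5 highest and 3 lowest levels per subunit, the Mrps18 genes, members on chromosome 17, the extremes of each list and Nfkbiz. Mrps36 (placed by structure), Tufm, Myc, Cd79a, the erythroid genes, Mrpl22 and Mrpl36 (promoters) were named after their values were seen. So were Mrpl34, Hira, Ncapd2, Fau and the genes that share exon bases. Gene positions are from GENCODE on NCBIM37, and promoters from RefSeq on GRCm38.p6. Single-transcript members had an inferred 193 to 1896 reads (median 452, from the steps of low scores). Alternatives were another pseudocount, filter, scaling and variance trend, the replicate number as a block, and each sample left out. The fit was tested on simulated data. Figures were drawn with matplotlib 3.10.9 in Python 3.11.15. A further marker is not reported here.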

Additional observations from a re-analysis of the deposited data

How the results depend on the processing

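The median of either subunit kept within the spread of the replicates under another pseudocount, filter, variance trend and scaling. Under the same settings the difference between the medians (large minus small) ran from -0.078, with a score above 0.05 required, to -0.004. Of 504 values of 45 single genes under alternatives, 478 kept their direction and side of the threshold. The labels do not say whether the replicate numbers pair the samples. Deviations of same-numbered samples were negatively correlated (Pearson -0.145, Spearman -0.291), which cannot settle whether they are pairs. With the replicate block limma called 1 member lower (Mrps10) and changed no other member's call (the assembly factor Mtg1 was called as well), and with the crossed replicate block, chosen after seeing the data, it called 1 member higher (Mrps6) and Mtg1 lower. With 1 sample left out at a time, members called lower numbered 0 to 3 and higher 0 to 1, the small subunit median was -0.22 to -0.12, and that of the aminoacyl-tRNA synthetases -0.13 to -0.07. Over the same 4 fits the sign turned in genes near 0, with log2 fold changes of -0.26 to 0.01 for Mrpl2, -0.19 to 0.05 for Mrps18a, -0.06 to 0.04 for Mrps18c, -0.03 to 0.15 for Mrps34, -0.02 to 0.11 for Mrpl39, -0.01 to 0.10 for Mrpl28 and -0.07 to 0.23 for Dap3. The large to small ratio was 1.81 in control and 1.82 in cKO as the mean over samples, 1.18 and 1.19 from geometric means, 1.92 and 1.92 without the highest member of each subunit, and 2.05 and 2.07 by structure. With a score above 0.05 required, 7 members had cKO below and 1 above both controls, among the 10 members left. The like shares of all genes above 0.05 were not counted. In the 100 bases before the start alone, 20.9% of member promoters held the ETS motif (13.1% of those of all genes past the score minimum), 5.97% the NRF1 core (2.79%), 2.99% the E-box (5.87%) and 1.49%, 1 promoter, the YY1 motif (1.11%), so the higher share of YY1 motifs rested on the rest of the window. The cause of these differences was not tested. The depth behind a score is inferred, so no counting interval is given, and with 2 samples a group changes of about 0.2 on the log2 scale could not be called gene by gene.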
